A study of Mus musculus with 12 samples.

Results

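The airway secretory and surfactant transcripts described here are 10 genes, taken by symbol from the 14648 genes of the deposited count table, and all 10 were found. They are 6 airway secretory genes, Scgb1a1, Scgb3a1, Scgb3a2, Bpifa1, Bpifb1 and Cyp2f2, and 4 surfactant genes, Sftpa1, Sftpb, Sftpc and Sftpd. They were chosen as RNA of lung epithelium that was counted in macrophages sorted from mouse lungs. The macrophages came from perfused lungs of C57BL/6 mice injected intravenously with B16 melanoma cells, so that every group carried tumors, and were sorted by flow cytometry on CD64, MerTK, Siglec-F and CD11c. There were 3 populations, CD11c+ interstitial macrophages (IMs), CD11c- IMs and alveolar macrophages (AMs), from mice with a germline deletion of the IL-9 receptor (Il9r-/-) and from wild type (WT) mice, with 2 libraries in each of 6 groups and 12 in all. The study used adult mice of both sexes, with no age per library, and did not state whether cells of several mice were pooled. Nothing in the labels says that the 2 libraries of a group came from separate mice, so the tests measure only how far these libraries differ from each other. The 2 WT libraries of each population differ in sex, as given below, and so came from different animals, while for the libraries labelled Il9r-/- the spread may be technical.

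Club cells of the conducting airways secrete secretoglobins and carry cytochrome P450 enzymes that metabolise inhaled chemicals, and secretory cells of the upper airways and airway glands add antimicrobial and lipid-binding proteins of the BPI fold family. Alveolar type 2 cells make pulmonary surfactant, the lipid and protein film that keeps alveoli from collapsing. AMs take up and degrade used surfactant, which reaches them as protein and lipid, while the 10 genes are textbook products of epithelium.

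The promoters of the 4 members whose windows hold the CTCAAG motif described below are shown first, since members that vary together across libraries could be read beside the letters before their start sites. RefSeq windows of GRCm38.p6, from 250 bases before to 50 bases after each start site, were found for 6 of the 10 members, with 2 windows for Bpifb1, and for 4 members, Scgb1a1, Scgb3a2, Sftpc and Sftpd, none was matched. In these 7 windows and in all 32851 windows of full length, 3 motifs were searched on both strands. They were CTCAAG, the core recognised by NKX2-1, the lung epithelial homeobox factor, TNTTTAC, a forkhead motif, and TTGCNNAA, a C/EBP motif. CTCAAG was found in 4 of the 7 windows, those of Scgb3a1, Bpifa1, Sftpa1 and Sftpb, and in 15.9% of all windows. TNTTTAC was found in 2 of the 7, in Bpifa1 and in 1 window of Bpifb1, and in 12.4% of all windows, and TTGCNNAA in 0 of the 7 and in 10.8% of all windows. The 250 bases before the start site are printed 5′ to 3′, all on the + strand, with matches in capitals. They lie at chr11:49663345-49663594 for Scgb3a1, chr2:154142630-154142879 for Bpifa1, chr14:41131538-41131787 for Sftpa1 and chr6:72304360-72304609 for Sftpb.
Scgb3a1: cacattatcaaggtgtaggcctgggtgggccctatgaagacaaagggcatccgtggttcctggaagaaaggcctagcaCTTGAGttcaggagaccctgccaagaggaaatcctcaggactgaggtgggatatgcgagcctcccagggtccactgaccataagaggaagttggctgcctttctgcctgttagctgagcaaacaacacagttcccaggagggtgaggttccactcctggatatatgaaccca
Bpifa1: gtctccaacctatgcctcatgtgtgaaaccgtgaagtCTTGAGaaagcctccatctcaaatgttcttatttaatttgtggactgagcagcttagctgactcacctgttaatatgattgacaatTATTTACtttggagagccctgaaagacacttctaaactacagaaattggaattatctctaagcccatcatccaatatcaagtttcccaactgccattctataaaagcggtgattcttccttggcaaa
Sftpa1: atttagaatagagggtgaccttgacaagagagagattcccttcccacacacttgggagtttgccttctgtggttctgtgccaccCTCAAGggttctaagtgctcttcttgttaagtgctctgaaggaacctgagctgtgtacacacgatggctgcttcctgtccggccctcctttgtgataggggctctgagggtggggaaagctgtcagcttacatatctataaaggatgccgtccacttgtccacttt
Sftpb: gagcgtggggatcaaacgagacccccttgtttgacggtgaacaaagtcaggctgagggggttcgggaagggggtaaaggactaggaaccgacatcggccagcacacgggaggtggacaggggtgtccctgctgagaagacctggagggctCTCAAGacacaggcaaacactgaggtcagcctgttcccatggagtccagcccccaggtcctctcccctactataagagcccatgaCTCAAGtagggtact
In Scgb3a1 the match, on the opposite strand, begins 172 bases before the start site, and in Sftpa1 it begins 166 bases before it. Sftpb has 2 matches, beginning 100 and 15 bases before the start site. Bpifa1 has CTCAAG on the opposite strand from 213 bases and TNTTTAC from 127 bases before the start site, and a further CTCAAG match after it. A match is a description of letters, not a bound site.

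The libraries held 26988617 to 42020021 counts. The IM and AM marker sums separated IMs from AMs. Levels are given as CPM, counts scaled to a common library total with TMM factors. The summed level of 8 IM markers was 6638 to 20800 CPM in the 8 IM libraries and 139 to 322 CPM in the 4 AM libraries. That of 8 AM markers was 1194 to 15910 CPM in IMs and 31780 to 43060 CPM in AMs. Chil3 made up most of the AM sum in AMs, and Apoe most of the IM sum in IMs. Itgax encodes CD11c, and its log2 fold change of CD11c+ over CD11c- IMs was 3.24 ± 0.34 in libraries labelled Il9r-/- and 3.21 ± 0.34 in WT (SE, edgeR, adjusted p = 0.00592 and 0.00989). Mertk, whose protein was used in the sort, stood at 20.7 to 100.1 CPM in CD11c- IMs and 354 to 435 CPM in AMs. It was called lower in CD11c- IMs in libraries labelled Il9r-/- and in WT (edgeR, adjusted p = 0.0331 and 0.0251). The sum of 6 general macrophage markers was also lower, at 18600 to 27850 CPM in CD11c- IMs and 51510 to 57000 CPM in AMs. The targeted gene went against the genotype labels. Il9r was at 6.60 and 6.82 CPM in AM libraries labelled Il9r-/-, against 0.627 and 0.326 CPM in WT AMs, and at 4.34 and 4.19 CPM in CD11c+ IM libraries labelled Il9r-/-, against 0.158 and 0.495 CPM in WT CD11c+ IMs. In CD11c- IMs it was at 2.59 and 6.09 CPM, against 0.75 and 6.47 CPM in WT. The deleted part of the gene is not given in the sources used here, and counts over the whole gene cannot show whether the remaining RNA is functional, so the genotype is given below as the libraries are labelled. The groups also differed in melanocyte markers, whose sum was lower without overlap in AMs, at 101 and 81.7 CPM in libraries labelled Il9r-/- and 328 and 143 CPM in WT. In CD11c+ IMs it was also lower without overlap, at 65.9 and 150.1 CPM in libraries labelled Il9r-/- and 769 and 328 CPM in WT. The deposited headers of the study's own comparisons name CD11c+ and CD11c- IMs the other way round from the count columns, and the libraries are taken here as the columns and labels name them. The 3 WT libraries numbered 1 also differ from the other 9 in sex: they held Xist, the female-specific transcript, at 12.5 to 27.0 CPM and the Y-linked Ddx3y at 0.257 CPM or less, and the other 9 held Xist at 0.0478 CPM or less.

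**Figure D1:**
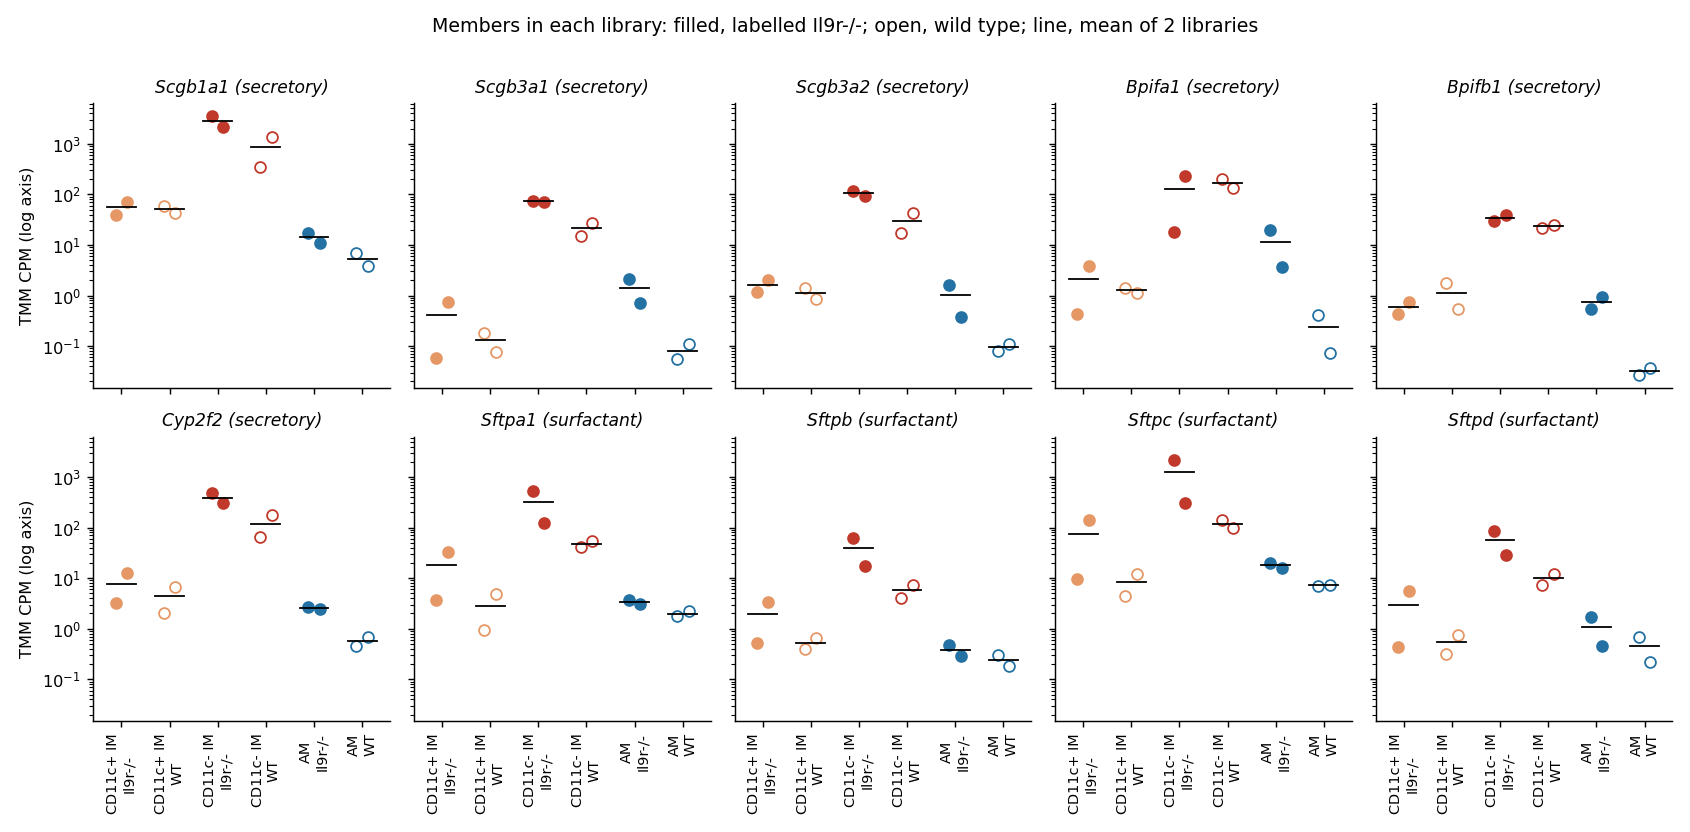
Level of each member (TMM-normalized CPM, log axis) in every library. Filled circles are libraries labelled Il9r-/-, open circles WT, and the line is the mean of 2 libraries. The means of all 10 members are highest in CD11c- IMs in both genotypes, with Scgb1a1 up to 3502 CPM and Sftpc up to 2186 CPM. Bpifa1 in library 1 of CD11c- IMs labelled Il9r-/-, at 18.4 CPM, lies below library 1 of AMs with that label, at 19.6 CPM.

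Scgb1a1, the club cell secretoglobin, was the most abundant member per length of transcript in CD11c- IMs, at 7482 and 4677 CPM per kb in libraries labelled Il9r-/- and 734 and 2958 CPM per kb in WT. As CPM it stood at 39.3 and 72.0 in CD11c+ IMs labelled Il9r-/- and 59.2 and 42.0 in WT CD11c+ IMs, at 3502 and 2189 in CD11c- IMs labelled Il9r-/- and 344 and 1384 in WT CD11c- IMs, and at 17.6 and 10.9 in AMs labelled Il9r-/- and 6.85 and 3.91 in WT AMs. The 3 populations did not overlap in Scgb1a1, with CD11c- IMs highest and AMs lowest. Scgb1a1 made up 39.9% to 89.7% of the summed secretory members in the 12 libraries, and the lowest share was in library 1 of AMs labelled Il9r-/-.

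Scgb3a2 and Scgb3a1, secretoglobins of small and of larger airways, followed the same order of populations only in part. Scgb3a2 stood at 1.17 and 2.04 CPM in CD11c+ IMs labelled Il9r-/- and 1.39 and 0.838 CPM in WT, at 115 and 93.4 CPM in CD11c- IMs labelled Il9r-/- and 17.1 and 42.5 CPM in WT, and at 1.64 and 0.384 CPM in AMs labelled Il9r-/- and 0.0818 and 0.109 CPM in WT. In WT, the Scgb3a2 levels of the 3 populations did not overlap, and in libraries labelled Il9r-/- those of CD11c+ IMs and AMs did. Scgb3a1 stood at 0.0586 and 0.762 CPM in CD11c+ IMs labelled Il9r-/- and 0.184 and 0.0762 CPM in WT, at 75.0 and 71.3 CPM in CD11c- IMs labelled Il9r-/- and 15.2 and 27.7 CPM in WT, and at 2.11 and 0.705 CPM in AMs labelled Il9r-/- and 0.0545 and 0.109 CPM in WT. The proportion of these secretoglobins varied least in the 4 CD11c- IM libraries, where the ratio of Scgb3a1 to Scgb3a2 as CPM was 0.651 to 0.887, against 0.05 to 0.373 in CD11c+ IMs and 0.667 to 1.83 in AMs. Both rest on few reads outside CD11c- IMs, with 2 to 7 counts of Scgb3a1 in 5 of the other 8 libraries.

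Cyp2f2, the P450 that activates naphthalene in mouse club cells, stood at 3.19 and 12.4 CPM in CD11c+ IMs labelled Il9r-/- and 2.05 and 6.66 CPM in WT, at 478 and 302 CPM in CD11c- IMs labelled Il9r-/- and 66.2 and 173 CPM in WT, and at 2.63 and 2.47 CPM in AMs labelled Il9r-/- and 0.464 and 0.687 CPM in WT. The order of the CD11c- IM libraries for Cyp2f2 was that of Scgb1a1, and the ratio of Cyp2f2 to Scgb1a1 as CPM stayed between 0.125 and 0.193 in these 4 libraries. Cyp2f2 overlaps Gm15883 on the opposite strand in the GENCODE annotation, and the library kit does not mark strand, so reads of the 2 cannot be told apart.

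Bpifa1, an airway surface protein of the upper airways also known as SPLUNC1, did not follow the other secretory members between libraries. It stood at 0.44 and 3.84 CPM in CD11c+ IMs labelled Il9r-/- and 1.42 and 1.10 CPM in WT, at 18.4 and 234 CPM in CD11c- IMs labelled Il9r-/- and 204 and 132 CPM in WT, and at 19.6 and 3.71 CPM in AMs labelled Il9r-/- and 0.409 and 0.0724 CPM in WT. The CD11c- IM library with the most Scgb1a1, library 1 labelled Il9r-/-, had the least Bpifa1 of that population, below the AM library 1 of the same label. The ratio of Bpifa1 to Scgb1a1 as CPM therefore reached from 0.00525 in that CD11c- IM library to 1.11 in that AM library. Bpifb1, a related BPI fold protein, was steadier, with 0.44 and 0.735 CPM in CD11c+ IMs labelled Il9r-/- and 1.74 and 0.533 CPM in WT, 30.2 and 39.0 CPM in CD11c- IMs labelled Il9r-/- and 21.5 and 25.1 CPM in WT, and 0.548 and 0.929 CPM in AMs labelled Il9r-/- and 0.0273 and 0.0362 CPM, 1 count in each library, in WT. The 4 CD11c- IM libraries lay within 21.5 to 39.0 CPM for Bpifb1, the narrowest range of the 10 members there.

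Sftpc, a surfactant protein that marks alveolar type 2 cells, was the most abundant surfactant member per length in all 12 libraries. As CPM it stood at 9.44 and 139 in CD11c+ IMs labelled Il9r-/- and 4.42 and 12.2 in WT, at 2186 and 302 in CD11c- IMs labelled Il9r-/- and 142 and 95.9 in WT, and at 20.4 and 15.6 in AMs labelled Il9r-/- and 7.12 and 7.34 in WT. CD11c- IMs labelled Il9r-/- were above WT CD11c- IMs without overlap, and library 2 of CD11c+ IMs labelled Il9r-/- reached the level of WT CD11c- IMs. Sftpb, which spreads surfactant lipids and is also made by club cells, stood at 0.528 and 3.43 CPM in CD11c+ IMs labelled Il9r-/- and 0.395 and 0.647 CPM in WT, at 61.1 and 17.3 CPM in CD11c- IMs labelled Il9r-/- and 4.07 and 7.48 CPM in WT, and at 0.469 and 0.288 CPM in AMs labelled Il9r-/- and 0.3 and 0.181 CPM in WT.

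Sftpa1 and Sftpd, the collectins of surfactant that bind microbes, had the same order of libraries within CD11c- IMs. Sftpa1 stood at 3.72 and 33.4 CPM in CD11c+ IMs labelled Il9r-/- and 0.948 and 4.80 CPM in WT, at 522 and 123 CPM in CD11c- IMs labelled Il9r-/- and 40.5 and 54.9 CPM in WT, and at 3.65 and 3.04 CPM in AMs labelled Il9r-/- and 1.77 and 2.21 CPM in WT. Sftpd stood at 0.44 and 5.47 CPM in CD11c+ IMs labelled Il9r-/- and 0.316 and 0.762 CPM in WT, at 86.7 and 28.5 CPM in CD11c- IMs labelled Il9r-/- and 7.37 and 12.3 CPM in WT, and at 1.70 and 0.448 CPM in AMs labelled Il9r-/- and 0.682 and 0.217 CPM in WT. All 4 surfactant members were highest in library 1 of CD11c- IMs labelled Il9r-/-, and library 2 of CD11c+ IMs labelled Il9r-/- was above the other 3 CD11c+ IM libraries in each of them.

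In the comparison of CD11c- IMs with AMs, the airway secretory and surfactant members had positive log2 fold changes in both genotypes, of 3.43 to 9.39, and all but Bpifa1 passed the test in both. In WT, all 10 members rose (edgeR quasi-likelihood test, Benjamini-Hochberg adjusted p under 0.05), against 15.1% of all 14648 genes that were higher, and the median log2 fold change was 7.52 over the members and 0.14 over all genes. The 6 secretory members had log2 fold changes of 7.32 to 9.39 and the 4 surfactant members of 4.04 to 4.59. Scgb1a1 rose by 7.32 ± 0.80 (SE, adjusted p = 0.000583), Cyp2f2 by 7.71 ± 0.95 (adjusted p = 0.000855) and Sftpc by 4.04 ± 1.24 (adjusted p = 0.0408) log2 units. Bpifb1 had 2052 counts in WT CD11c- IMs and 2 in WT AMs, a ratio of 745 with a 95% exact interval of 206 to 6158 that covers counting error only. The count of members called was 6 without library 1 and 5 without library 2 of WT AMs, and 4 without the 3 WT libraries numbered 1, which left Scgb1a1, Scgb3a2, Bpifb1 and Cyp2f2.

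In the libraries labelled Il9r-/-, 9 of the 10 members rose in CD11c- IMs over AMs, against 18.4% of all genes, with a median log2 fold change of 6.35 over the members and 0.11 over all genes. Scgb1a1 rose by 7.64 ± 0.81 (edgeR, adjusted p = 0.00044), Cyp2f2 by 7.25 ± 0.90 (adjusted p = 0.000859), Sftpb by 6.67 ± 1.04 (adjusted p = 0.00224) and Sftpc by 6.11 ± 1.36 (adjusted p = 0.0105) log2 units. Bpifa1 did not pass, with 3.43 ± 1.27 and an adjusted p of 0.0706, and its 2 groups overlapped. DESeq2 called it, and edgeR called it without library 1 of these CD11c- IMs. With 1 library left out it ran up to 5.07, without library 1 of these AMs. It was lowest, at 0.65, without library 2 of these CD11c- IMs. The secretory and surfactant members had similar medians here, 6.17 and 6.35, where in WT they were 8.15 and 4.47. The count was 8 without library 1 and 7 without library 2 of these AMs, and 10 without library 1 of these CD11c- IMs.

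CD11c+ IMs were above AMs in some secretory transcripts in WT, with no called difference in surfactant transcripts. In WT, 3 of the 10 members rose, against 6.77% of all genes: Scgb1a1 by 3.23 ± 0.67 (edgeR, adjusted p = 0.0154), Scgb3a2 by 3.55 ± 0.90 (adjusted p = 0.0348) and Bpifb1 by 5.07 ± 0.79 (adjusted p = 0.0048) log2 units. For Bpifb1 the counts were 80 in WT CD11c+ IMs and 2 in WT AMs, a ratio of 40.0 with a 95% exact interval of 10.7 to 336. Cyp2f2 was at 2.92 ± 0.84 with an adjusted p of 0.0561, and the 4 surfactant members were at 0.18 to 1.06. The count was 0 without library 1 of WT AMs, 1 without library 2, and 0 without the 3 WT libraries numbered 1.

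Among the libraries labelled Il9r-/-, 0 of the 10 members passed between CD11c+ IMs and AMs by edgeR, against 8.54% of all genes that were higher. There, 3 members had an unadjusted p under 0.05, against 27.6% of all genes, and DESeq2 called 3, Scgb1a1, Sftpa1 and Sftpb. The log2 fold changes were 1.96 ± 0.63 for Scgb1a1, 1.61 ± 0.73 for Cyp2f2 and 1.45 to 2.47 for the surfactant members, and −2.44 ± 1.26 for Bpifa1, −1.77 ± 0.82 for Scgb3a1 and −0.32 ± 0.54 for Bpifb1. The count was 2 without library 1 of these CD11c+ IMs, Sftpa1 and Sftpb, and 1 without library 2, Scgb3a1, which was then lower.

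Between the IM populations, CD11c+ libraries lay below CD11c- libraries without overlap for all 10 members, in WT and in the libraries labelled Il9r-/-. Of all 14648 genes, 3564 were lower without overlap in WT and 3547 in the libraries labelled Il9r-/-. In WT, 5 members fell by edgeR, against 0.382% of all genes that were lower: Scgb1a1, Scgb3a1, Scgb3a2, Bpifb1 and Cyp2f2, with log2 fold changes of −7.25 ± 1.00 for Scgb3a1 (adjusted p = 0.0169) to −4.09 ± 0.68 for Scgb1a1 (adjusted p = 0.0343). Bpifa1 was at −7.05 ± 1.53 with an adjusted p of 0.0726, and the surfactant members lay between −4.22 and −3.48. In the libraries labelled Il9r-/-, 6 members fell, against 1.37% of all genes, the same 5 and Sftpb. There the log2 fold change was −5.87 ± 0.59 for Bpifb1 (adjusted p = 0.00592), −6.01 ± 0.71 for Scgb3a2 (adjusted p = 0.0076) and −4.30 ± 0.91 for Sftpb (adjusted p = 0.0492). DESeq2 called all 10 in both genotypes, and the fit of only the 2 groups compared called 1 in each. The WT count was 1 without library 1 and 0 without library 2 of CD11c+ IMs, 3 without either library of CD11c- IMs, and 0 without the 3 WT libraries numbered 1. The count in libraries labelled Il9r-/- was 2 without library 1 and 9 without library 2 of CD11c+ IMs, and 4 without library 1 of CD11c- IMs or without the 3 WT libraries numbered 1. Fewer epithelial cells among the sorted cells and less of these RNAs per cell cannot be told apart in bulk libraries.

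Between the genotypes, edgeR called 0 members in each of the 3 populations, and DESeq2 called 4 in AMs and 0 in both IM populations. In CD11c- IMs, 9 of the 10 members were higher in both libraries labelled Il9r-/- than in both WT libraries, against 9.88% of all genes, and the exception was Bpifa1. By edgeR 0 were called, as were 0 of all genes, 8 had an unadjusted p under 0.05, against 1.7% of all genes, and DESeq2 called 0 of the 10. The log2 fold changes were 2.55 to 3.39 for the surfactant members, 1.70 to 1.81 for Scgb1a1, Scgb3a1, Scgb3a2 and Cyp2f2, 0.57 ± 0.47 for Bpifb1 and −0.42 ± 1.15 for Bpifa1. Their adjusted p was 1 for each. The members varied together between libraries, as given below, so these 10 values are not independent. Other lists also had positive log2 fold changes, where 50.5% of all genes were positive, though 0 of their genes were called by edgeR. Positive were 17 of 23 further secretory cell genes, 19 of 20 further alveolar type 2 genes and 11 of 12 alveolar type 1 genes. So were 15 of 15 ciliated cell genes, 12 of 12 pan-epithelial genes, 7 of 7 endothelial markers and 5 of 5 neutrophil markers. Of the macrophage markers, 7 of 8 for AMs and 4 of 8 for IMs were positive. Of the dendritic cell markers, 3 of 6 were. The neutrophil sum was 2156 and 4783 CPM in CD11c- IMs labelled Il9r-/- and 219.7 and 2128 CPM in WT. The endothelial sum was 389 and 171 CPM in CD11c- IMs labelled Il9r-/- and 70.1 and 178 CPM in WT. The part of these cells in the members' levels was not tested. With each library left out in turn, Sftpc stayed between 1.34 and 4.20 and Scgb1a1 between 1.04 and 3.05 log2 units, and Bpifa1 lay between −3.19 and 0.47.

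In AMs, all 10 members had positive log2 fold changes in libraries labelled Il9r-/- over WT, and 8 did not overlap, against 22.2% of all genes. By edgeR 0 were called, against 0.0205% of all genes, 5 had an unadjusted p under 0.05, against 4.08% of all genes, and DESeq2 called 4, Scgb3a1, Scgb3a2, Bpifa1 and Bpifb1. The secretory members were at 1.40 to 5.49, with 5.49 ± 1.58 for Bpifa1 (adjusted p = 0.922), 4.12 ± 1.06 for Scgb3a1 (adjusted p = 0.825) and 3.41 ± 0.90 for Scgb3a2 (adjusted p = 0.833), and the surfactant members at 0.64 to 1.31. Bpifb1 had 50 counts in AMs labelled Il9r-/- and 2 in WT AMs, a ratio of 23.1 with a 95% exact interval of 6.07 to 196. Of further epithelial genes, 12 of 23 secretory cell genes and 8 of 20 alveolar type 2 genes were positive. So were 7 of 12 alveolar type 1, 6 of 15 ciliated cell and 7 of 12 pan-epithelial genes. Genes at 0 in every AM library cannot be positive, and these totals include them. Among secretory cell genes they were Scgb1c1, Muc5b, Cckar, Ces1f, Kcnk2 and Upk3a, and among alveolar type 2 genes Sfta2 and Egfl6. Among ciliated cell genes they were Dynlrb2, Ccdc153, Dnah5, Fam183b and Pifo. Of the macrophage markers, 8 of 8 for AMs and 0 of 8 for IMs were positive. The 5 neutrophil markers measured were also positive, with sums of 79.3 and 134 CPM in AMs labelled Il9r-/- and 31.8 and 71.0 CPM in WT AMs. Their part was not tested. These are small amounts of RNA: the 10 members together took 70.3 and 38.5 CPM in AMs labelled Il9r-/- and 17.7 and 14.9 CPM in WT AMs. A fit of the 2 AM groups alone called 1 member, Sftpc.

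In CD11c+ IMs the genotypes overlapped in all 10 members, where 12.9% of all genes were higher without overlap. By edgeR 0 members were called, against 0.00683% of all genes, 2 had an unadjusted p under 0.05, against 3.88% of all genes, and DESeq2 called 0. The surfactant members were at 1.94 to 3.17 log2 units and rested on library 2 of the libraries labelled Il9r-/-, without which Sftpa1 was at 0.40, Sftpb at 0.04, Sftpc at 0.19 and Sftpd at −0.25. Bpifb1 was at −0.97 ± 0.53, and the other secretory members were at 0.14 to 1.58. The endothelial sum was higher without overlap, at 183 and 204 CPM in CD11c+ IMs labelled Il9r-/- and 88.0 and 101 CPM in WT CD11c+ IMs, with 7 of 7 markers positive. Its part was not tested.

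**Figure D2:**
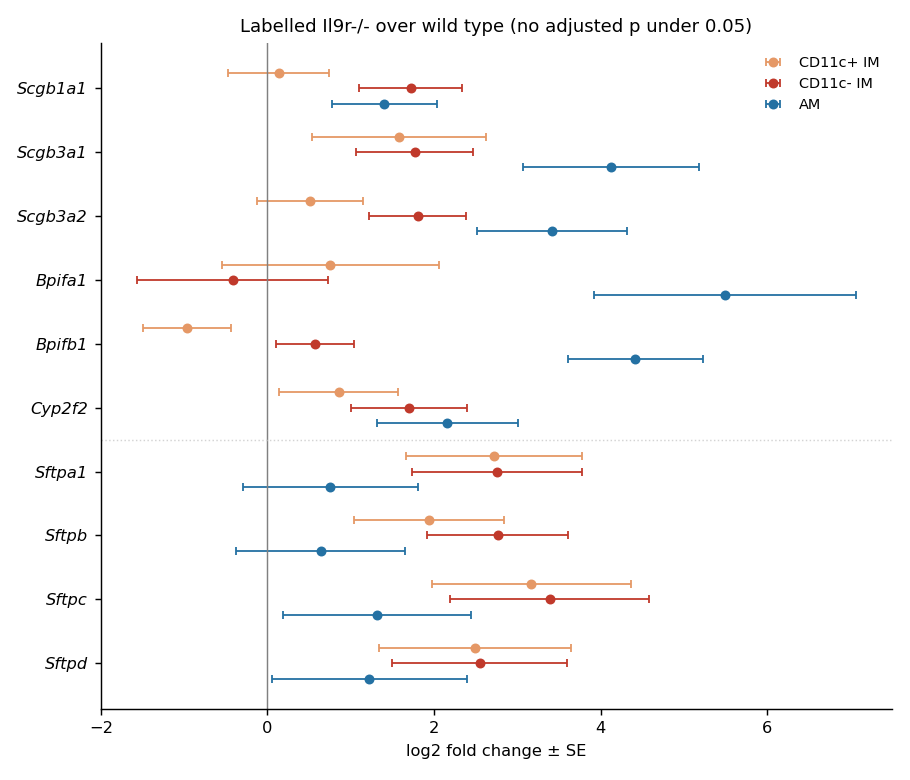
Log2 fold change ± SE of each member in libraries labelled Il9r-/- over WT within each population (edgeR), with no member at an adjusted p under 0.05. Surfactant members lie at 1.94 to 3.39 in both IM populations and at 0.64 to 1.31 in AMs, and Bpifa1 lies at 5.49 in AMs and −0.42 in CD11c- IMs.

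The test of whether a population difference itself differed between the genotypes called 0 members for each of the 3 pairs of populations by edgeR, and 0% of all genes. An unadjusted p under 0.05 was reached by 2 members for CD11c- IMs against AMs (2.3% of all genes), by 3 for CD11c+ IMs against AMs (2.82%) and by 0 for CD11c+ against CD11c- IMs (1.54%). DESeq2 called 1 member, Bpifb1 in CD11c+ IMs against AMs, and 0 for the other 2 pairs. The largest values were −5.91 ± 1.95 log2 units for Bpifa1 in CD11c- IMs against AMs (adjusted p = 1) and −5.38 ± 0.98 for Bpifb1 in CD11c+ IMs against AMs (adjusted p = 0.613). WT AMs held 15 and 2 counts of Bpifa1 and 1 count of Bpifb1 in each library.

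The secretory and surfactant members did not stand in a fixed proportion. The summed secretory members were at 44.6 and 91.8 CPM in CD11c+ IMs labelled Il9r-/- and 66.0 and 51.2 CPM in WT, at 4218 and 2928 CPM in CD11c- IMs labelled Il9r-/- and 668 and 1785 CPM in WT, and at 44.2 and 19.1 CPM in AMs labelled Il9r-/- and 7.88 and 4.92 CPM in WT. The summed surfactant members were at 14.1 and 182 CPM in CD11c+ IMs labelled Il9r-/- and 6.08 and 18.4 CPM in WT, at 2856 and 470.0 CPM in CD11c- IMs labelled Il9r-/- and 194 and 171 CPM in WT, and at 26.2 and 19.3 CPM in AMs labelled Il9r-/- and 9.87 and 9.95 CPM in WT. The ratio of the secretory to the surfactant sum was lowest, at 0.494, in library 2 of WT AMs and highest, at 10.9, in library 1 of WT CD11c+ IMs. In WT it was higher in both IM populations, at 2.78 to 10.9, than in AMs, at 0.494 and 0.798, without overlap. Libraries of 1 group also differed, with 3.16 and 0.506 in CD11c+ IMs labelled Il9r-/- and 1.48 and 6.23 in CD11c- IMs labelled Il9r-/-. Within the surfactant class the proportions were narrower, and Sftpc made up 56.2% to 80.5% of the summed surfactant members in the 12 libraries. Within the secretory class they were not, as the ratios of Bpifa1 to Scgb1a1 above show.

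**Figure D3:**
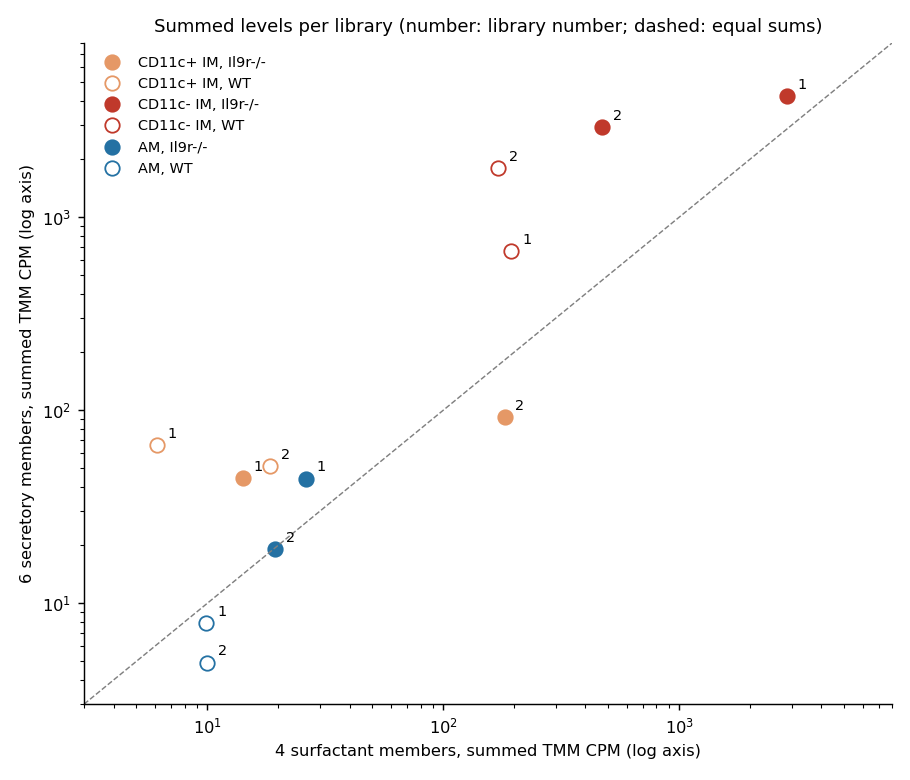
Summed TMM CPM of the 6 secretory members against that of the 4 surfactant members in each library, both axes log, with the library number beside each point and equal sums on the dashed line. The 4 CD11c- IM libraries lie at 668 to 4218 CPM on the secretory axis, and library 2 of CD11c+ IMs labelled Il9r-/- lies below the line with 91.8 CPM secretory and 182 CPM surfactant.

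As a description over the 12 libraries, which share depth and population, Pearson's r of log2(CPM + 0.5) had a median of 0.982 over the 6 pairs of surfactant members, 0.949 over the 15 pairs of secretory members and 0.905 over the 24 pairs of 1 of each. Bpifa1 had a median of 0.841 with the other 5 secretory members. After the mean of each group was taken off, which leaves 1 mirrored pair of deviations per group, the surfactant pairs kept a median of 0.905 and the secretory pairs had 0.245. Among the secretory members, the secretoglobins still varied together, with 0.912 for Scgb3a1 with Scgb3a2 and 0.857 for Scgb1a1 with Scgb3a2. Cyp2f2 varied more with Sftpa1, at 0.881, than with Scgb1a1, at 0.543, and Bpifa1 and Bpifb1 had 0.202 with each other.

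**Figure D4:**
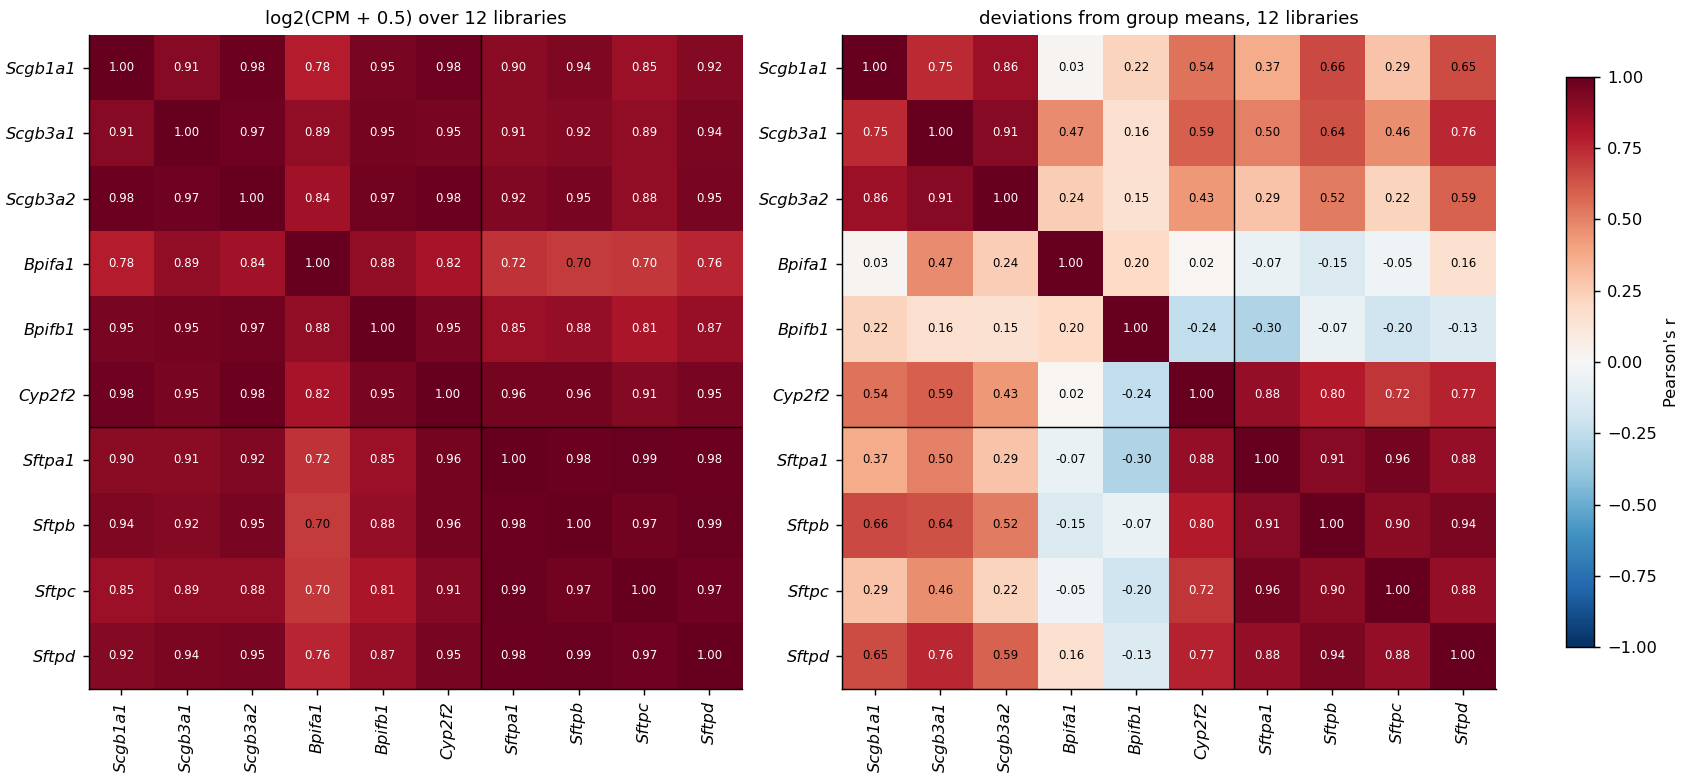
Pearson's r between members over 12 libraries for log2(CPM + 0.5), left, and for deviations from group means, right, with the secretory and surfactant members separated by lines. The surfactant block stays red on the right, with r of 0.88 to 0.96, while Bpifa1 and Bpifb1 are pale against most other members.

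The genes whose profile over the 12 libraries was most like that of the members were ranked among 12459 other genes with a mean CPM of at least 1. For the secretory members they were Wfdc2, a secreted protein of airway epithelium, with r = 0.987, the tight junction gene Cldn10 with 0.983, Rarres2, which encodes chemerin, with 0.979, Medag, Lrrc17, the extracellular matrix genes Ogn and Pcolce2, and the antimicrobial lectin Reg3g with 0.972. Wfdc2 was at 1.20 CPM in CD11c+ IMs labelled Il9r-/- and 0.49 in WT, at 40.5 in CD11c- IMs labelled Il9r-/- and 14.3 in WT, and at 0.544 in AMs labelled Il9r-/- and 0.0816 in WT, as means of 2 libraries. For the surfactant members they were Car8 with 0.990, the ciliary gene Ccdc153 with 0.985, Slc34a2, the phosphate transporter of alveolar type 2 cells, with 0.983, Ptprg, the aquaporin Aqp5 with 0.982, Lrrc48, the lung chemokine Cxcl15 with 0.977 and Mal2 with 0.973. Slc34a2 averaged 39.7 CPM in CD11c- IMs labelled Il9r-/- and 4.40 CPM in WT, and was at 0.0136 CPM in WT AMs.

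Further genes listed for the same epithelial cells were called in part in CD11c- IMs over AMs. There, 18.4% of all genes were higher in libraries labelled Il9r-/- and 15.1% in WT. Of 23 further secretory cell genes measured, 14 rose and 0 fell in CD11c- IMs over AMs in the libraries labelled Il9r-/-, and 15 rose and 0 fell in WT, with median log2 fold changes of 6.00 and 6.95. The 3 most abundant were Retnla, encoding resistin-like alpha, Hp, encoding haptoglobin, and Cbr2, a carbonyl reductase. They rose by 7.01, 4.90 and 7.47 log2 units in libraries labelled Il9r-/- and by 7.86, 3.85 and 7.39 in WT. Retnla averaged 677 CPM in CD11c+ IMs labelled Il9r-/- and 602 CPM in WT CD11c+ IMs. Hp averaged 203 and 151 CPM and Cbr2 47.0 and 93.4 CPM in these groups. Unlike the members, Retnla and Hp were thus abundant in both IM populations. None of the 3 ordered the CD11c- IM libraries as Scgb1a1 did. WT library 1 of CD11c- IMs, with the least Scgb1a1 of that population, had the most Retnla, at 2959 CPM. The part of macrophages and other cells in these 3 genes was not tested. Of 20 further alveolar type 2 genes, 13 rose and 0 fell in libraries labelled Il9r-/- and 7 rose and 0 fell in WT. The 3 most abundant of them, Ctsh, Cd36 and Napsa, which macrophages also express, did not pass, at −0.12, −0.23 and 1.45 in libraries labelled Il9r-/- and −0.19, −0.23 and 1.18 in WT. Lung epithelial factor Nkx2-1 was at 1.97 CPM in CD11c- IMs labelled Il9r-/- and 0.947 CPM in WT CD11c- IMs, and at 0.0391 CPM in AMs labelled Il9r-/- and 0.0136 CPM in WT AMs, as means of 2 libraries. Nkx2-1 was chosen here after its values were seen.

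Markers of the remaining epithelium were mixed in CD11c- IMs over AMs, where 1556 of all 14648 genes were called lower in each genotype. Of 12 alveolar type 1 genes, 6 rose and 1 fell in CD11c- IMs over AMs in libraries labelled Il9r-/- and 3 rose and 2 fell in WT, led by level by Cav1, Hopx and Emp2. Of 15 ciliated cell genes, 8 rose and 1 fell, and 7 rose and 1 fell in WT, the gene that fell being Tppp3, which AMs also hold. The next most abundant ciliated cell genes were Sec14l3 and Cfap126. Sec14l3 averaged 71.1 CPM in CD11c- IMs labelled Il9r-/- and 33.1 in WT, and 2.10 and 1.68 CPM in AMs. Cfap126 was close to level, at 2.00 and 1.74 CPM in CD11c- IMs and 1.69 and 1.07 CPM in AMs. The defining ciliated genes Foxj1 and Ccdc153, with means of 0.823 and 1.18 CPM over 12 libraries, were at 0 in 2 and 4 of the 4 AM libraries. They were at 0 in none of the 4 CD11c- IM libraries. Of 12 pan-epithelial genes, 6 rose and 3 fell, and 4 rose and 3 fell in WT. The 3 that fell were Epcam, Cdh1 and Krt19, which stood at 89.5, 75.1 and 1271 CPM in AMs labelled Il9r-/- and 177, 96.2 and 1172 CPM in WT AMs, so that these usual epithelial markers follow AMs and not the members. Krt8 and Krt18, keratins of simple epithelia, were picked after their values were seen. As means of 2 libraries they were at 7.44 and 6.03 CPM in WT CD11c- IMs, 6.55 and 3.75 CPM in WT CD11c+ IMs and 0.286 and 0.408 CPM in WT AMs. In libraries labelled Il9r-/- they were at 21.6 and 16.7, 0.746 and 0.934, and 0.473 and 0.0812 CPM in these populations. Krt8 overlapped between the WT IM populations, at 12.45 and 0.647 CPM in CD11c+ IMs and 5.49 and 9.39 CPM in CD11c- IMs. Of 2 basal cell genes measured, Krt14 and Dapl1, Dapl1 rose in both genotypes. Of 14 genes of surfactant clearance by macrophages, 1 rose and 10 fell in libraries labelled Il9r-/- and 1 rose and 9 fell in WT. The log2 fold changes of Lpl, Lipa and Bhlhe40 were −3.57, −2.04 and −1.81 in libraries labelled Il9r-/- and −3.69, −2.15 and −1.65 in WT. Marco, Pparg and Fabp4 of this list are also among the AM markers summed above, so the 2 lists are not independent.

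Markers of some cells that are not epithelium were also highest in CD11c- IMs, and others were not. The summed level of 6 fibroblast markers, among them Col1a2, Col3a1 and Dcn, was 3.87 to 46.4 CPM in CD11c+ IMs, 576 to 891 CPM in CD11c- IMs and 7.06 to 8.29 CPM in AMs, with Lum at 0 in 1 AM library. That of 6 melanocyte markers, among them Dct, Tyrp1 and Pmel, was 65.9 to 769 CPM in CD11c+ IMs, 3268 to 8737 CPM in CD11c- IMs and 81.7 to 328 CPM in AMs, with none at 0. That of 4 of 5 B cell markers was 98.8 to 470 CPM in CD11c+ IMs, 179 to 1453 CPM in CD11c- IMs and 21.7 to 49.0 CPM in AMs. That of 5 of 6 neutrophil markers was 129 to 1437 CPM in CD11c+ IMs, 219.7 to 4783 CPM in CD11c- IMs and 31.8 to 134 CPM in AMs. Dendritic cell markers were at 444 to 2034 CPM in CD11c+ IMs, 187 to 880.1 CPM in CD11c- IMs and 14.7 to 47.4 CPM in AMs. T and NK cell markers were at 73.5 to 203, 67.5 to 398 and 11.4 to 20.7 CPM in these populations. Endothelial markers were at 88.0 to 204, 70.1 to 389 and 93.8 to 111 CPM. Between the IM populations the dendritic cell markers ran against the members, with 6 of 6 positive in CD11c+ over CD11c- IMs in both genotypes. The endothelial, T and NK cell, B cell and neutrophil sums overlapped between the IM populations. Within libraries labelled Il9r-/- the neutrophil sums did not, at 349.5 and 1437 CPM in CD11c+ IMs and 2156 and 4783 CPM in CD11c- IMs. The part of these cells in the levels of the members was not tested. Within CD11c- IMs the fibroblast sum was 612 and 891 CPM in libraries labelled Il9r-/- and 576 and 676 CPM in WT, and the melanocyte sum was 7328 and 3268 CPM in libraries labelled Il9r-/- and 8737 and 3343 CPM in WT, so that the genotypes overlapped in both sums. Library 2 of CD11c+ IMs labelled Il9r-/-, the one with the most surfactant transcripts of its population, also had the highest fibroblast sum, 46.4 CPM, the highest neutrophil sum, 1437 CPM, and the lowest Mertk, 59.8 CPM, of the 4 CD11c+ IM libraries.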

How the data were processed

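RNA from sorted lung macrophages was amplified with SMART-Seq v4, a kit that does not mark strand, and sequenced as paired reads. The authors aligned reads to mm10 with STAR 2.5 and assigned uniquely mapped reads to genes by featureCounts (Subread 1.5.1) in a reverse-stranded setting. The deposited table holds raw counts, gene lengths and log2 FPKM values for each of 12 libraries, after the authors' filter on low CPM. It also holds the authors' own comparisons as deposited fold scores, log2 fold changes, ratios and p-values, which were not used here. There were 0 sample columns without a matching label.

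Counts were tested with edgeR 4.0.16 in R 4.3.3 (TMM normalization, robust quasi-likelihood F test, all 12 libraries as 6 groups, 6 residual degrees of freedom, common BCV 0.382). The filter (2 or more libraries with a CPM of 0.5 or above) was met by all 14648 genes, and adjusted p is Benjamini-Hochberg over them, called under 0.05. An SE is the absolute log2 fold change over the square root of F. Depth was 26988617 to 42020021 counts per library. Exact intervals at 95% cover counting error only.

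Alternatives were DESeq2 1.42.0, other size factors, other filters, each library left out (a lone library is then assumed to vary like the other groups), the 3 WT libraries numbered 1 left out, the library number as a block, only the groups compared, and limma 3.58.1 on the deposited log2 FPKM. Scripts were tested on simulated data. All 10 members are named, with the 8 genes most like each class and the 3 most abundant measured genes of each epithelial and surfactant clearance list. Of the cell type markers only some are named, among them Foxj1 and Ccdc153. Nkx2-1, Krt8 and Krt18 were added after their values were seen. The members and lists were chosen with earlier results of these data known.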

Additional observations from a re-analysis of the deposited data

How the results depend on the processing

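The direction of every member was the same under each alternative between CD11c- IMs and AMs and between the IM populations. Without the 3 WT libraries numbered 1, Scgb3a1 was at −0.49 in WT CD11c+ IMs over AMs and Bpifb1 at 0.14 in CD11c+ IMs labelled Il9r-/- over WT, 495, 0 and 1 genes were called in WT (CD11c- IMs over AMs, CD11c+ IMs over AMs, CD11c+ over CD11c- IMs) with 4, 0 and 0 members, and 1117 and 74 in libraries labelled Il9r-/- (CD11c+ IMs over AMs, CD11c+ over CD11c- IMs) and 0 between genotypes in AMs and CD11c+ IMs. DESeq2 called 3048 and 1245 genes in the last 2 WT comparisons, 3301 and 1481 in those labelled Il9r-/-, 65, 95 and 9 between genotypes in AMs, CD11c+ IMs and CD11c- IMs, and 11, 18 and 2 for the interactions, with 10 members between the IM populations in each genotype, 3 in CD11c+ IMs over AMs labelled Il9r-/-, 4 between genotypes in AMs and 1 interaction. Fits of only the groups compared called 2972, 7, 3, 184 and 0 genes for WT CD11c+ IMs over AMs, WT and labelled Il9r-/- CD11c+ over CD11c- IMs, and the genotypes in AMs and CD11c+ IMs, with 1 member each between IM populations, in CD11c+ IMs over AMs labelled Il9r-/- and in AMs. Limma on log2 FPKM called 459 and 895 genes between IM populations in WT and labelled Il9r-/-, and 6 and 5 between genotypes in AMs and CD11c+ IMs. With a mean CPM of at least 5, 2809, 1 and 0 genes were called for CD11c- IMs over AMs labelled Il9r-/- and the genotypes in AMs and CD11c+ IMs. The cause of these shifts was not tested.

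The labels do not say that a library number marks a mouse, and same-numbered deviations correlated at 0.152 to 0.584 within and 0.0296 to 0.591 across genotypes. With the number as a block, 2635 and 456 genes were called for WT CD11c+ IMs over AMs and over CD11c- IMs, 2767 and 714 for those labelled Il9r-/-, and 9 and 2 between genotypes in AMs and CD11c+ IMs, and the members called were 10, 4 and 6 in WT and 9, 0 and 6 in libraries labelled Il9r-/-. With the block by donor label, 393 and 526 genes were called between the IM populations in WT and labelled Il9r-/-.

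With 1 library left out in turn, genes called were 1471 to 2957, 441 to 809 and 7 to 102 in WT, 1802 to 3016, 480 to 2032 and 48 to 403 in libraries labelled Il9r-/-, and 0 between genotypes, and members called were 5 to 9, 0 to 2 and 0 to 3 in WT and 7 to 10, 0 to 2 and 2 to 9 in libraries labelled Il9r-/-. Log2 fold changes that crossed 0 were, in WT CD11c+ IMs over AMs, Scgb3a1 −0.042 to 1.28, Sftpa1 −1.03 to 1.27, Sftpc −0.68 to 0.76 and Sftpd −0.52 to 1.26, and in those labelled Il9r-/- Scgb3a2 −0.029 to 2.06, Bpifb1 −0.73 to 0.10, Sftpc −0.93 to 2.96 and Sftpd −1.30 to 2.71. Between genotypes they were Sftpd −0.031 to 2.30 in AMs, Bpifa1 −3.19 to 0.47 in CD11c- IMs, and in CD11c+ IMs Scgb1a1 −0.37 to 0.51, Scgb3a1 −1.18 to 2.44, Bpifa1 −1.52 to 1.59, Bpifb1 −1.57 to 0.14, Cyp2f2 −0.43 to 1.91 and Sftpd −0.25 to 3.38. With 2 libraries a group, these differences rest on little data. Those of Scgb3a1, Scgb3a2, Bpifa1 and Bpifb1 against WT AMs also rest on few counts, 15 or fewer in each WT AM library.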
